A study of Homo sapiens with 36 samples.

Results

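Human C4-2 prostate cancer cells grown alone with recombinant RANKL were compared with the same cells grown alone without it. The members were the C4-2 mono-cultures of the series, chosen by their labels: 2 libraries with RANKL and 3 libraries without, 5 of 36 libraries in all. C4-2 is an LNCaP-derived line that the study used as a model of osteoblastic prostate cancer (BPCa). In the series, 4 prostate cancer lines were cultured alone, alone with RANKL, beside MG63 osteosarcoma cells, or beside RAW264.7 macrophage-like cells with RANKL, and poly(A) RNA of the cancer cells was sequenced. RAW264.7 cells form osteoclasts when given RANKL, and the purpose of the mono-cultures with RANKL is not stated in the sources used here.

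RANKL (TNFSF11) is a member of the TNF family that drives osteoclast formation. Its receptor RANK (TNFRSF11A) recruits TRAF adaptors, which activate IKK and NF-kB as well as MAP kinases, and osteoprotegerin (TNFRSF11B) is a decoy that binds RANKL. Prostate cancer cells meet RANKL in bone, where osteoblast-lineage cells and osteocytes make it.

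All 5 cultures stood in chambers made for 2 cell types to share medium, without a second cell type, and were harvested on day 5. The treated cultures received recombinant mouse soluble RANKL at 50 ng/mL and the other 3 received none. The p-values rest on a spread between replicates that was estimated over all 36 libraries of the series, not over these 5 alone. The labels do not say that the replicates were separate cultures, so that spread may be technical. The deposited values were estimated counts per transcript, summed here by gene and shown as CPM, scaled to the library total.

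The 3 cultures without RANKL were sequenced more deeply, with 27738951 to 33582290 counts against 10869447 and 13373083 with RANKL, a ratio of group means of 2.55. RANKL and sequencing depth therefore cannot be told apart in this comparison. A gene with 3 counts stood at no more than 0.108 CPM without RANKL and 0.276 CPM with it. Of the line's own markers, 11 of 12 were in the table, led by KLK3, and their summed level was 8280 to 8570 CPM without RANKL and 6990 to 7120 CPM with it. Markers of macrophages and osteoclasts summed to 27.2 to 31.0 CPM without RANKL and 23.8 to 25.2 CPM with it, mostly CD68, with TYROBP and OCSTAMP at 0 in all 5 libraries and 4 of 12 markers at or under 3 counts. The 12 markers of osteoblast-like cells summed to 9.92 to 11 CPM and 9.62 to 11.1 CPM, with POSTN, LUM and THY1 at or under 3 counts throughout. The 11 markers of DU145, another line of the study, summed to 23.3 to 26.0 CPM without RANKL and 16.4 to 17.2 CPM with it, and most of the sum without RANKL was VIM, with KRT5 at 0.

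**Figure D1:**
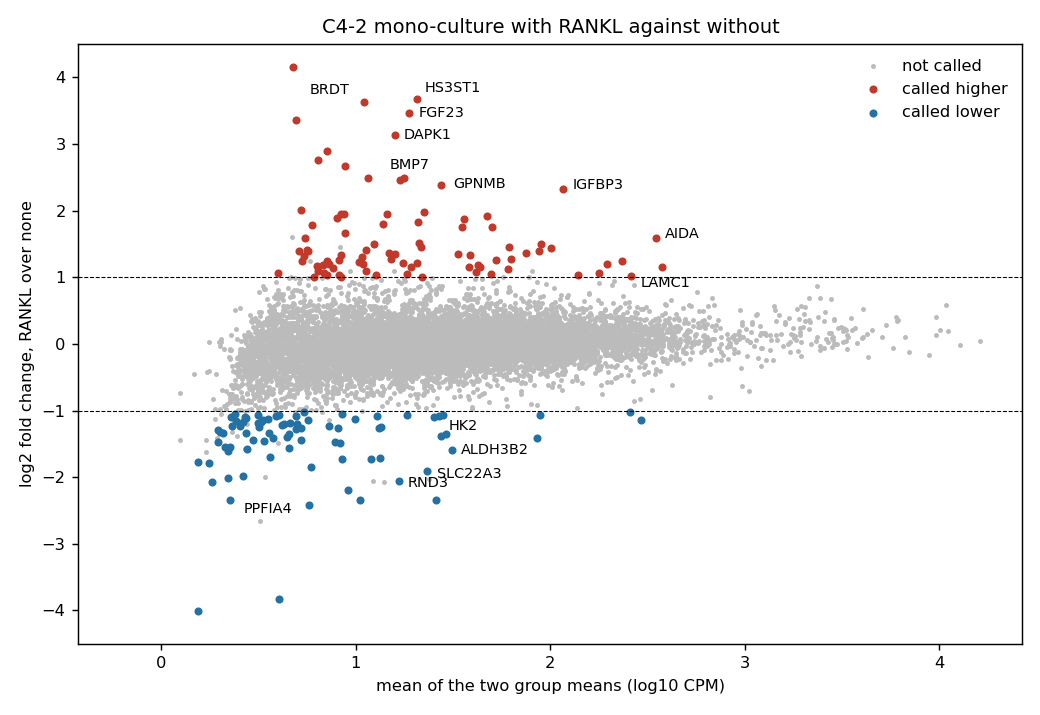
Each point is 1 of the tested genes, those of the Y chromosome left out, with the mean of both group means in log10 CPM on the horizontal axis and the log2 fold change of RANKL over none on the vertical axis. The 87 genes called higher that are drawn are red and the 81 called lower are blue, and the latter sit mostly at low levels. Outside the plotted range lie 4 genes, of which 1 was called lower.

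Few genes changed more than 2-fold. HS3ST1, a heparan sulfate sulfotransferase, BRDT, a bromodomain protein normally restricted to testis, FGF23, the phosphate-regulating hormone, and DAPK1, a pro-apoptotic kinase, each rose more than 8-fold. PPFIA4, MYBPC1, RND3 and EPHA3 were among those that fell. Of 11267 genes tested by edgeR's quasi-likelihood test, 91 were called higher with RANKL (0.808%) and 82 lower (0.728%), at a fold change above 2 and a Benjamini-Hochberg adjusted p under 0.05. The 173 called genes did not overlap between the groups in any library, and neither did 65.9% of all genes tested. Of the genes called lower, 54 were still called without RANKL replicate 1 and 51 without RANKL replicate 2, and with the MG63 co-cultures as the control 38 of the 91 higher and 39 of the 82 lower were. Only 15 genes rose and 11 fell more than 4-fold. The median size was 1.36 on the log2 scale for the genes called higher (quartiles 1.17 to 1.81) and 1.32 for those called lower (1.15 to 1.60).

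The count minimum was applied to libraries of unequal depth, so a gene could pass it through the deeper libraries without RANKL alone. Of the genes called lower, 66 of 82 were under 100 counts in both RANKL libraries and passed in this way. Of those called higher, 7 of 91 were under 100 counts in all 3 libraries without RANKL. This contrast follows in part from the minimum and the depth, so it is not read as a trait of the genes. With genes at a mean of at least 5 CPM, refitted, 86 were higher and 36 lower (70.5% higher, against 52.6% of the calls above). With the deeper libraries thinned to the depth of the RANKL libraries 89 were higher and 39 lower (69.5% higher), and scaling by library size alone gave 75 and 115 (39.5% higher), with the median of all genes at -0.112 against -0.017 on the log2 scale. Protein-coding genes made up 81 of the genes called higher and 74 of those called lower. On the Y chromosome, 4 of 16 tested genes were called higher and 0 lower.

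At any fold, 1227 genes were higher (10.9%) and 1162 lower (10.3%) at an adjusted p under 0.05 in edgeR's quasi-likelihood test. These wider counts are the background for the gene lists below. They were 715 and 580 without RANKL replicate 1, and 763 and 579 without RANKL replicate 2. With library size alone they were 773 (6.86%) and 2173 (19.3%), when the fit held only the 20 mono-cultures 2044 (18.1%) and 1849 (16.4%), and with the MG63 co-cultures as the control, an alternative chosen after seeing the data, 695 (6.17%) and 653 (5.8%). These shares are the background for list counts under those alternatives. Without the DU145 and MG63 co-culture library that stood apart from the rest of the series, an alternative chosen after seeing the data, they were 1988 and 1806, since the spread was estimated over all libraries.

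The most increased gene among those with a mean of at least 5 CPM, Y-linked genes aside, was HS3ST1, which adds sulfate to heparan sulfate chains. Its level was 2.26, 3.73 and 3.64 CPM without RANKL and 43.5 and 32.9 CPM with it. The groups lay far apart, and the log2 fold change was 3.67 ± 0.20 (SE; edgeR adjusted p = 9.9e-13). Co-culture with MG63 without RANKL left HS3ST1 at 6.51 and 6.49 CPM, whereas co-culture with RAW264.7 and RANKL had 39.4 and 34.7 CPM. These are means over all cells of a culture, so more expressing cells and more RNA per cell cannot be told apart.

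BRDT, which reads acetylated histones in male germ cells, was at 1.84, 1.61 and 1.75 CPM without RANKL and at 19.7 and 21.0 CPM with it. The log2 fold change was 3.64 ± 0.21 (SE; edgeR adjusted p = 5.3e-12), with tight replicates in both groups. The MG63 co-cultures, which had no RANKL, lay in between at 10.6 and 7.26 CPM. DAPK1, a calmodulin-regulated kinase, was at 4.34, 3.62 and 2.47 CPM without RANKL and at 32.7 and 24.2 CPM with it, a log2 fold change of 3.13 ± 0.21 (SE; edgeR adjusted p = 5.3e-11). For DAPK1 the MG63 co-cultures stayed at the untreated level, 4.22 and 3.57 CPM, and the RAW264.7 co-cultures reached 31.0 and 29.8 CPM.

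FGF23, a hormone made chiefly by osteocytes that lowers blood phosphate, was at 3.49, 3.66 and 2.85 CPM without RANKL and at 35.2 and 33.5 CPM with it. Its log2 fold change was 3.46 ± 0.23 (SE; edgeR adjusted p = 6.2e-11). The MG63 co-cultures without RANKL held the same level as the RANKL cultures, 35.9 and 35.1 CPM, and with them as the control the log2 difference was -0.07 (edgeR adjusted p = 0.9). Those libraries had 14171287 and 15397563 counts, close to the RANKL libraries in depth, so all 6 C4-2 libraries with high FGF23 were shallower than the 3 with low FGF23. TMSB4X, the actin-binding peptide thymosin beta, had the same order at a higher level, with 39.0, 42.5 and 37.4 CPM without RANKL, 80.0 and 82.1 CPM with it (1.13 ± 0.13 SE, edgeR adjusted p = 6.4e-07) and 84.6 and 79.3 CPM beside MG63 cells.

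BMP7, IGFBP3, LGALS1 and GPNMB were also among the 12 most increased genes. BMP7, a bone morphogenetic protein that promotes osteoblast differentiation, was at 5.33, 5.98 and 5.67 CPM without RANKL and 32.0 and 27.7 CPM with it (log2 fold change 2.49 ± 0.16 SE, edgeR adjusted p = 5.1e-11). IGFBP3, which binds insulin-like growth factors in the extracellular space, went from 44.1, 40.7 and 38.8 CPM to 222 and 162 CPM (2.32 ± 0.14 SE, edgeR adjusted p = 2.1e-11). LGALS1, the secreted lectin galectin-1, went from 5.83, 6.42 and 4.29 CPM to 28.9 and 27.6 CPM (2.46 ± 0.17 SE, edgeR adjusted p = 1.4e-10). In each of these genes the lowest RANKL library was well above the highest library without RANKL, and both MG63 co-cultures were nearer to the untreated level. GPNMB, a transmembrane glycoprotein also known as osteoactivin, had 10.0, 8.88 and 8.83 CPM without RANKL and 39.9 and 51.1 CPM with it (2.39 ± 0.21 SE, edgeR adjusted p = 6.6e-09), and the MG63 co-cultures were intermediate at 28.5 and 24 CPM.

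MYL9, BRINP1, NPW and CYP11A1 completed the 12 most increased genes. MYL9, a regulatory light chain of myosin, had 1.62, 1.78 and 1.94 CPM without RANKL and 11 and 13.9 CPM with it. CYP11A1, which cleaves the cholesterol side chain in the first step of steroid synthesis, had 4.04, 3.44 and 3.54 CPM without RANKL and 15.3 and 23.5 CPM with it. Neither gene overlapped between the groups, and edgeR's adjusted p was 4.1e-09 and 8.6e-08. Beside MG63 cells without RANKL, CYP11A1 was at 16.7 and 11.4 CPM, and with those co-cultures as the control it was not called (0.44, edgeR adjusted p = 0.32). BRINP1, a neural protein, had 1.72, 1.77 and 1.76 CPM against 11.2 and 11 CPM (log2 fold change 2.75 ± 0.21 SE, edgeR adjusted p = 1.1e-09). NPW, the precursor of neuropeptide W, was uneven within both groups, at 2.75, 4.73 and 0.341 CPM against 23.1 and 7.03 CPM. Its log2 fold change of 2.66 ± 0.86 (SE; edgeR adjusted p = 0.029) lost the call without RANKL replicate 1, where it was 1.53 (adjusted p = 0.46), and the adjusted p was 0.068 without untreated replicate 1, 0.1 without untreated replicate 3 and 0.097 with DESeq2.

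**Figure D2:**
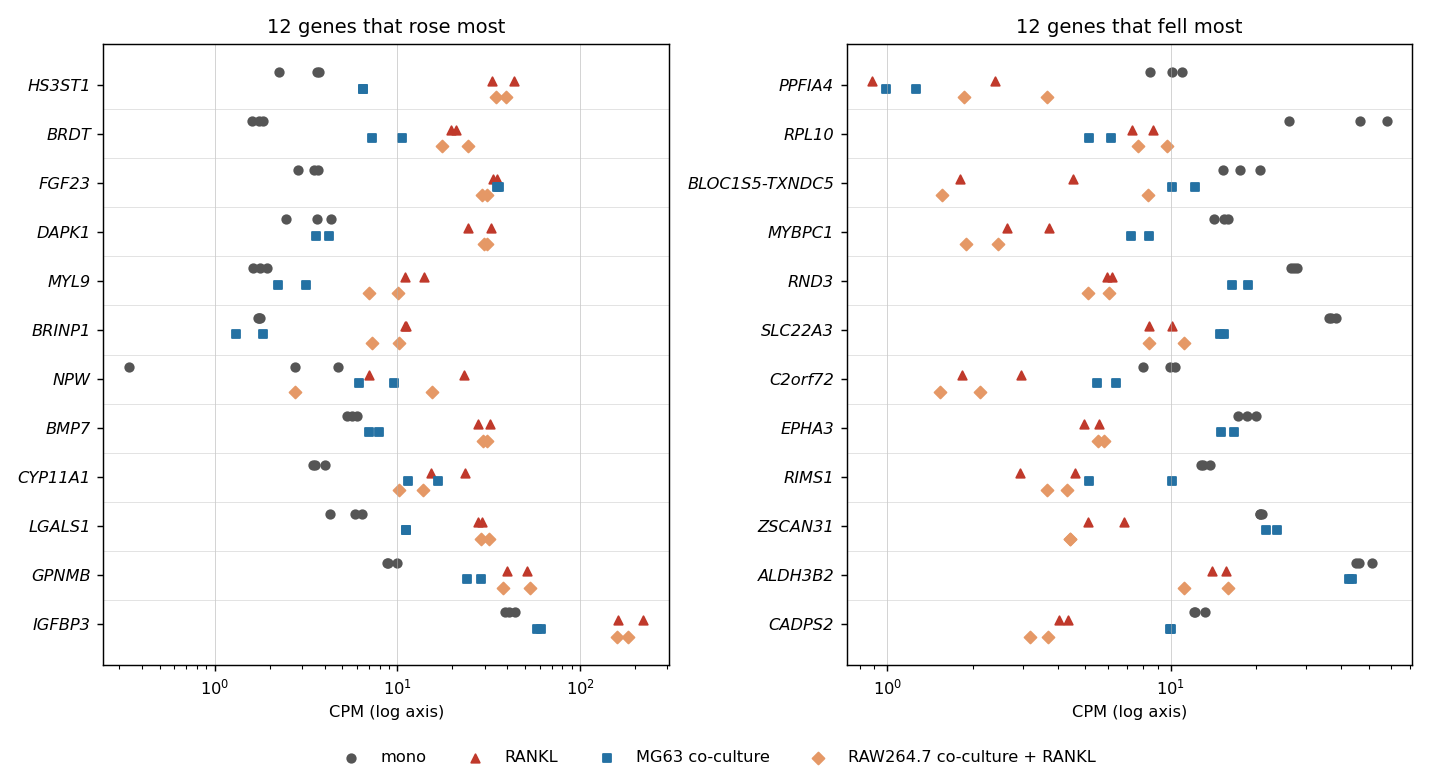
CPM on a log axis in every C4-2 library for the 12 genes named as most increased and the 12 named as most decreased with RANKL, with 1 point per library and colors for the 4 cultures. The points of the RANKL cultures and of the RAW264.7 co-cultures with RANKL lie together for most genes, whereas the MG63 co-cultures lie near the untreated cultures for HS3ST1, DAPK1 and ZSCAN31 and near the RANKL cultures for FGF23, PPFIA4 and RPL10.

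Among the genes that fell, RND3, an atypical small GTPase that opposes actomyosin contraction, was the clearest. It was at 26.5, 27.9 and 27.2 CPM without RANKL and at 6.22 and 5.97 CPM with it. The log2 fold change was -2.06 ± 0.10 (SE; edgeR adjusted p = 3e-13), and the SD was 0.706 CPM without RANKL (n = 3) and 0.177 CPM with it (n = 2). EPHA3, an ephrin receptor tyrosine kinase, had 20, 18.6 and 17.3 CPM against 4.96 and 5.60 CPM (-1.73 ± 0.09 SE, edgeR adjusted p = 3.9e-13). SLC22A3, an organic cation transporter, had 38.4, 36.1 and 36.7 CPM against 10.1 and 8.38 CPM (-1.90 ± 0.14 SE, edgeR adjusted p = 3.6e-10), and in its case the MG63 co-cultures had fallen part of the way, to 15.4 and 14.9 CPM.

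ALDH3B2, an aldehyde dehydrogenase, was at 46.4, 51.2 and 45.0 CPM without RANKL and at 14 and 15.7 CPM with it (log2 fold change -1.59 ± 0.17 SE, edgeR adjusted p = 2.6e-07). MYBPC1, a myosin-binding protein of slow skeletal muscle, was at 14.2, 16 and 15.4 CPM against 2.65 and 3.71 CPM (-2.19 ± 0.22 SE, edgeR adjusted p = 1.5e-07). ZSCAN31, a zinc finger protein, was at 20.6, 20.7 and 21.0 CPM against 5.09 and 6.82 CPM (-1.72 ± 0.15 SE, edgeR adjusted p = 1.1e-08). No RANKL library reached the level of any untreated library in these genes. RIMS1 and CADPS2, both with roles in vesicle release at nerve terminals, and C2orf72 fell by 1.73, 1.49 and 1.84 on the log2 scale.

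The largest decreases were less certain. PPFIA4, a scaffold protein of the liprin family, was at 8.45, 11 and 10.1 CPM without RANKL and at 2.40 and 0.886 CPM with it (-2.42 ± 0.52 SE, edgeR adjusted p = 0.0015). The MG63 co-cultures were as low, at 0.991 and 1.26 CPM. RPL10 was at 57.9, 46.7 and 26.2 CPM against 8.69 and 7.31 CPM (log2 fold change -2.35), but this ribosomal protein gene has near-identical copies between which reads may be split. BLOC1S5-TXNDC5, at 15.3, 17.5 and 20.6 CPM against 4.52 and 1.80 CPM, is a readthrough symbol that shares exons with its parent genes. With the MG63 co-cultures as the control, an alternative chosen after seeing the data, PPFIA4 was at 0.59 (edgeR adjusted p = 0.71) and RPL10 at 0.48 (adjusted p = 0.7) on the log2 scale.

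The genes of the RANK axis were mostly expressed at low level in C4-2, and none of the 12 that could be tested changed more than 2-fold. RANK itself, TNFRSF11A, was at 1.73, 2.08 and 1.53 CPM without RANKL and 1.54 and 1.31 CPM with it, from 58.2, 57.7, 48.3, 20.6 and 14.3 counts, below the minimum for testing. TNFSF11 had no more than 2.26 counts and TNFRSF11B no more than 3.05 counts in any of the 5 libraries. Of the 18 listed genes, 17 were in the table and 12 were tested, with 0 higher and 1 lower, and their median log2 fold change was -0.11 against -0.02 over all genes tested. The gene that fell was TRAF5, an adaptor, at 9.66, 9.29 and 10.7 CPM against 7.07 and 6.23 CPM (-0.47 ± 0.14 SE, edgeR adjusted p = 0.021), and it no longer passed without RANKL replicate 1, without RANKL replicate 2 or without untreated replicate 3. TRAF2 and TRAF3 were expressed at 20.9 to 33.4 CPM in all 5 libraries, with log2 fold changes of -0.07 (edgeR adjusted p = 0.77) and 0.16 (adjusted p = 0.22). TRAF6, the adaptor most closely tied to RANK signaling, was at 4.09, 4.46 and 3.37 CPM against 3.46 and 3.80 CPM.

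Of 34 NF-kB target genes, 14 were expressed enough to be tested, 2 rose and 1 fell, with a median log2 fold change of -0.01. NFKBIA, the inhibitor that NF-kB induces in feedback, was at 121, 112 and 128 CPM without RANKL and 141 and 136 CPM with it (0.30 ± 0.08 SE, edgeR adjusted p = 0.013). IER3, an immediate early gene, was at 6.65, 6.48 and 6.36 CPM against 11.4 and 9.16 CPM (0.76 ± 0.11 SE, edgeR adjusted p = 1.6e-05). BIRC2, an inhibitor of apoptosis, fell by 0.28 on the log2 scale (edgeR adjusted p = 0.009). Without RANKL replicate 1 the counts were 1 and 0, and without RANKL replicate 2 or untreated replicate 2 they were 1 and 1, while with library size alone they were 1 and 3. ICAM1, a strong NF-kB target elsewhere, was at 7.31, 7.43 and 8.04 CPM against 7.44 and 6.74 CPM, whereas beside MG63 cells it was at 21.1 and 22.1 CPM. SERPINA3 and LCN2, the genes that the study followed, were at 0.354 to 1.31 CPM and 0 to 0.297 CPM in the 5 mono-cultures and were too low to test.

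The start regions of the changed genes were searched for an NF-kB motif, GGGANNTTCC on either strand (reverse complement GGAANNTCCC), in windows from 250 bases before to 50 bases after the RefSeq start of each gene (GRCh38.p14). The motif was in 12 of 29 promoters found for the NF-kB target list (41.4%), in 139 of 8939 found for tested genes (1.55%) and in 445 of 27305 in the whole table (1.63%). Among called genes it was in 1 of 66 promoters of those higher (1.52%) and 2 of 64 of those lower (3.12%). The 250 bases before the start of NFKBIA and FGF23 are shown, the first as a listed target that holds the motif (in capitals) and the second as the gene called higher in all 4 lines, without it in this window.
NFKBIA (chr14:35404750-35404999, minus strand): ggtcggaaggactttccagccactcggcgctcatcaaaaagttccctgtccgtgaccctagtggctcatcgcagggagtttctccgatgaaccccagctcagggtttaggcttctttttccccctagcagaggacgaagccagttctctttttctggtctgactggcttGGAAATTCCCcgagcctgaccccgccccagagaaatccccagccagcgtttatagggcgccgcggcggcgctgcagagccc
FGF23 (chr12:4379713-4379962, minus strand): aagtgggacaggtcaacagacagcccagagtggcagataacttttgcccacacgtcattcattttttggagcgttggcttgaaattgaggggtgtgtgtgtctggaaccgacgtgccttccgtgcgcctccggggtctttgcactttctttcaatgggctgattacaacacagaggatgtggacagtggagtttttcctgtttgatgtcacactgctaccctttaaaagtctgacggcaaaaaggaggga

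Other responses that can follow TNF-family signaling were also mixed. Of 15 tested immediate early AP-1 and EGR genes, 3 rose and 2 fell: JUNB, at 39.0 to 42.9 CPM without RANKL and 45.8 and 48.6 CPM with it, and DUSP1 were among the former. MYC, at 276, 266 and 287 CPM against 182 and 193 CPM, fell by 0.47 (edgeR adjusted p = 0.00038). FOS and EGR1 were under 1 CPM in all 5 libraries. In this list 1 fell without RANKL replicate 2 or untreated replicate 2, and with the MG63 co-cultures as the control 1 rose and 5 fell. Of 11 tested interferon-stimulated genes, 4 rose and 1 fell (median 0.38), with IFI6 at 9.55, 9.01 and 9.44 CPM against 13.8 and 18.3 CPM and MX1, an antiviral GTPase, down by 0.37. Only 2 rose without RANKL replicate 1 or without untreated replicate 2, and with the MG63 co-cultures as the control 0 rose and 2 fell. The count of interferon-stimulated genes that fell was 0 without RANKL replicate 1, without untreated replicate 3 and after thinning.

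**Figure D3:**
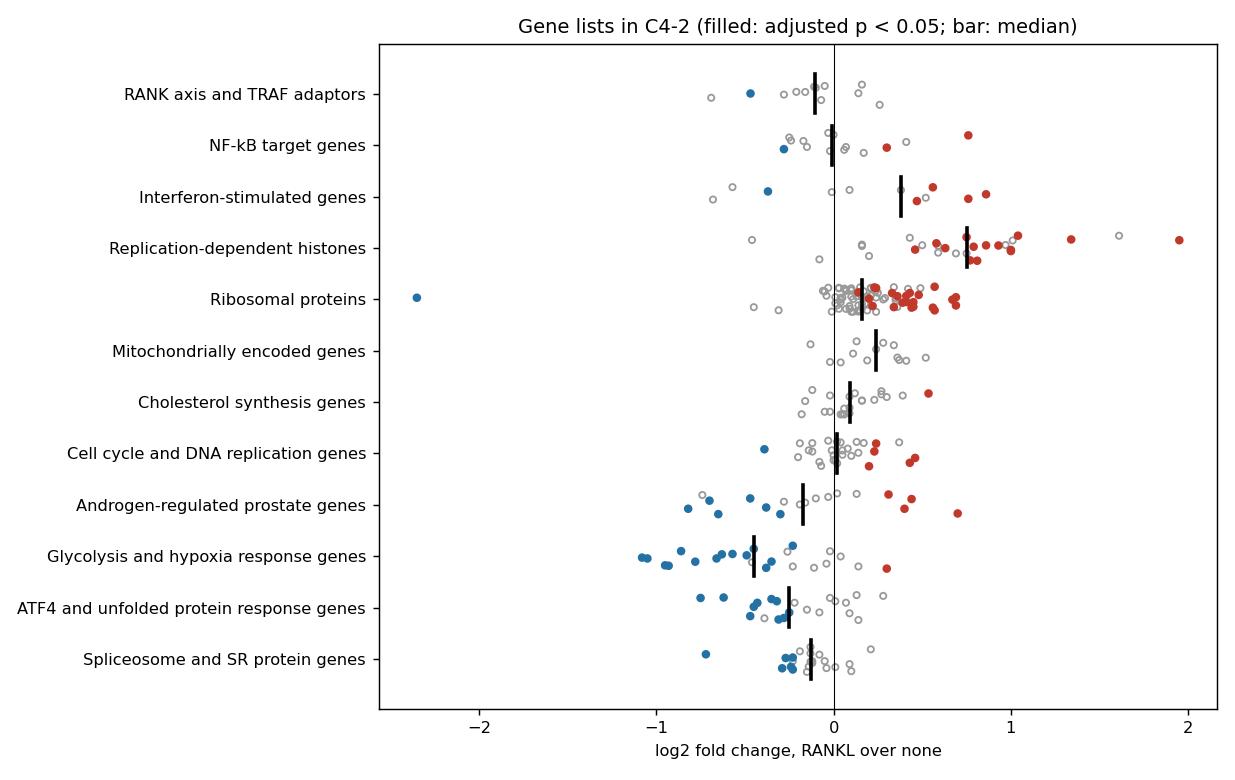
Log2 fold changes of RANKL over none for the tested members of 12 gene lists, with filled points for an edgeR adjusted p under 0.05 (red higher, blue lower), open points for the rest and a bar at each list's median. Histone genes lie to the right with a median of 0.75, and genes of glycolysis and the hypoxia response lie to the left with a median of -0.45.

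Replication-dependent histone genes were higher with RANKL. These genes encode the bulk of nucleosomal histones, and most of their messages lack a poly(A) tail, so in poly(A) libraries only the tailed fraction is counted. Of 56 listed genes 28 were tested, 14 rose and 0 fell, with a median of 0.75 against -0.02 over all genes. With the MG63 co-cultures as the control 8 rose and 0 fell, with a median of 0.60. H1-2, the most abundant, was at 428, 428 and 444 CPM without RANKL and 693 and 706 CPM with it (0.79 ± 0.09 SE, edgeR adjusted p = 1.1e-06). H1-4 rose from 3.51, 3.26 and 4.14 CPM to 11.4 and 15.1 CPM (1.95 ± 0.33 SE, edgeR adjusted p = 0.00012), and H3C10 from 37.5, 42 and 40.4 CPM to 74.2 and 75.4 CPM. The listed genes summed to 865 to 895 CPM without RANKL and to 1360 to 1420 CPM with it. They summed to 977 to 1060 CPM beside MG63 cells and 1030 to 1100 CPM beside RAW264.7 cells with RANKL. Of 29 genes of the cell cycle and DNA replication, 5 rose and 1 fell, with a median of 0.02, and by library size alone 1 rose and 5 fell. The count of those that rose was 1 without RANKL replicate 1, 2 without RANKL replicate 2 or untreated replicate 2, and 3 without untreated replicate 1 or 3.

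Of 84 tested ribosomal protein genes, 23 rose and 1, RPL10, fell, with a median of 0.16. The count that rose was 14 with library size alone or without untreated replicate 1, 13 without either RANKL library and 47 when the fit held only the 20 mono-cultures, and with the MG63 co-cultures as the control 2 rose and 3 fell, with a median of -0.08. RPL15 went from a mean of 1990 CPM to 2350 CPM and RPS2 from 5340 to 6640 CPM. The ribosomal protein share of all counts was 16.3 to 16.7% without RANKL and 17.8 to 18.2% with it. All 13 mitochondrially encoded protein genes were tested and 0 passed, with a median of 0.24, whereas 8 passed as higher when the fit held only the 20 mono-cultures. Of 25 nuclear genes of the respiratory chain, 5 rose and 0 fell, against 2 and 5 with library size alone. Of these, 1 rose without RANKL replicate 1, 2 without RANKL replicate 2 and 3 without untreated replicate 1 or 2, with 0 lower in each.

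Genes of glycolysis and the hypoxia response were lower. Of 23 tested, 14 fell and 1 rose, with a median of -0.45. HK2, the inducible hexokinase, was at 35.9, 39.6 and 36.3 CPM without RANKL and 16.2 and 16.9 CPM with it (-1.08 ± 0.09 SE, edgeR adjusted p = 8.1e-09). It was uncalled at -0.40 with the MG63 co-cultures as the control (edgeR adjusted p = 0.013). LDHA, which makes lactate, was at 1110, 1310 and 1210 CPM against 742 and 725 CPM (-0.63 ± 0.10 SE, edgeR adjusted p = 9.4e-05). The mitophagy receptor BNIP3 was at 310, 389 and 366 CPM against 193 and 174 CPM, and VEGFA, the angiogenic growth factor, at 80.6, 94.6 and 87.4 CPM against 56.4 and 53.9 CPM. None of these overlapped between the groups, and EGLN3, a prolyl hydroxylase induced by hypoxia, was called lower (-1.05, but uncalled at -0.99 without untreated replicate 2, at -0.97 under the replicate block and at -0.64 with the MG63 co-cultures as the control) in the same list. The gene that rose was ALDOA, at 1420, 1530 and 1540 CPM against 1780 and 1670 CPM (0.30 ± 0.08 SE, edgeR adjusted p = 0.01). Without RANKL replicate 1 the counts were 9 lower and 0 higher. The count that rose was also 0 without untreated replicate 1, with library size alone and without a count minimum.

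The MG63 co-cultures had similarly low glycolytic transcripts without RANKL, for example 721 and 741 CPM of LDHA and 166 and 168 CPM of BNIP3. With those co-cultures as the control, 4 genes of the list fell and 1 rose, with a median of 0.01. Targets of ATF4 and the unfolded protein response also fell in the main comparison, with 10 of 21 lower, 0 higher and a median of -0.25. ASNS, asparagine synthetase, was at 228, 227 and 222 CPM against 138 and 137 CPM (-0.62 ± 0.08 SE, edgeR adjusted p = 3.2e-06), and 141 and 152 CPM beside MG63 cells. That list's count fell to 5 without RANKL replicate 1, 3 without RANKL replicate 2 and 5 without untreated replicate 2, and 1 fell and 2 rose with the MG63 co-cultures as the control.

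Androgen-regulated genes went both ways. Of 18 tested, 6 fell and 4 rose (median -0.18). With library size alone 9 fell, and with the MG63 co-cultures as the control 1 fell and 5 rose, with a median of 0.05. KLK2, a kallikrein of the prostate, was at 1290, 1320 and 1380 CPM without RANKL and 777 and 752 CPM with it (-0.70 ± 0.11 SE, edgeR adjusted p = 4.9e-05), and CAMKK2, a calmodulin-dependent kinase, was at 49.0, 50.5 and 50.7 CPM against 26.8 and 26.1 CPM (-0.82 ± 0.08 SE, edgeR adjusted p = 4.2e-08). TRPM8, a cold-sensing channel, was at 100, 82.9 and 105 CPM against 157 and 136 CPM (0.70 ± 0.11 SE, edgeR adjusted p = 6.9e-05). KLK3, which encodes PSA, was at 4600, 4760 and 4720 CPM against 3920 and 3800 CPM without passing the test (-0.19, edgeR adjusted p = 0.12).

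Of 22 tested cholesterol synthesis genes 1, SC5D, rose and 0 fell, whereas 6 rose and 1 fell when the fit held only the 20 mono-cultures, and 11 rose and 0 fell with the MG63 co-cultures as the control. Of 10 fatty acid synthesis genes 4 fell and 1 rose: ACSL3, an acyl-CoA synthetase, from 361, 384 and 391 CPM to 187 and 215 CPM, and the elongase ELOVL6 in the other direction, from 4.57, 5.09 and 4.24 CPM to 8.38 and 9.78 CPM. Only 2 fell without RANKL replicate 1, and with the MG63 co-cultures as the control 2 rose and 0 fell. ELOVL6 was called higher at 1.06 on the log2 scale, but it was not called at 0.96 without RANKL replicate 2, at 0.96 with library size alone, at 0.94 after thinning or at 0.27 with the MG63 co-cultures as the control (edgeR adjusted p = 0.4).

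Among genes tied to bone matrix and cell shape, BMP7 rose and COL5A1, a fibrillar collagen chain, fell from 4.06, 3.71 and 3.79 CPM to 0.570 and 0.806 CPM (log2 fold change -2.35 ± 0.42 SE, edgeR adjusted p = 0.00028). COL5A1 had 7.63 and 8.76 counts in the RANKL libraries and passed the count minimum through the libraries without RANKL, and it was not tested at a mean of 5 CPM or after thinning. Of 18 bone matrix genes only 3 were tested. IGF1, a growth factor that acts on osteoblasts, fell from 39.0, 38.5 and 39.1 CPM to 20.4 and 14.1 CPM (-1.06 ± 0.14 SE, edgeR adjusted p = 8e-06), and at -0.83 it was not called without RANKL replicate 2. VIM, the mesenchymal filament protein vimentin, fell from 18.4, 20.4 and 19.2 CPM to 8.61 and 6.45 CPM (-1.25 ± 0.16 SE, edgeR adjusted p = 3.2e-06), whereas FN1, fibronectin, rose from 575, 507 and 545 CPM to 853 and 790 CPM. Of 14 tested genes of the epithelial and mesenchymal list 3 rose and 3 fell. LAMC1, a laminin chain, rose from 179, 185 and 177 CPM to 344 and 341 CPM (1.02 ± 0.09 SE, edgeR adjusted p = 1.1e-08). It was uncalled at 0.96 without a count minimum, at 0.93 with library size alone and at 0.59 with the MG63 co-cultures as the control. LAMC1 was 1 of 5 collagen and basement membrane genes of 14 that rose, while 2 fell. Without RANKL replicate 1 only 2 of these rose, and without RANKL replicate 2 or with library size alone 3 did. In the epithelial and mesenchymal list 1 fell without RANKL replicate 2.

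Among stress-response lists, 4 of 13 NRF2 targets rose and 2 fell. HMOX1, heme oxygenase, went from 19.4, 19.8 and 20.4 CPM to 33.1 and 34.5 CPM (0.86 ± 0.11 SE, edgeR adjusted p = 2.9e-06), and NQO1, a quinone reductase, from 529, 516 and 523 CPM to 325 and 311 CPM (-0.62 ± 0.07 SE, edgeR adjusted p = 5.4e-07). Of 15 p53 targets 2 rose, including the cell cycle inhibitor CDKN1A (0.68, edgeR adjusted p = 3.3e-07), and 2 fell. Of 22 spliceosome genes 6 fell, led by the kinase CLK1, and 0 rose, but only 3 and 2 fell without RANKL replicates 1 and 2, and 14 fell with library size alone. In the remaining lists 1 of 11 heat shock genes rose and 1 fell, 2 of 7 ERK feedback genes rose and 1 fell, 2 of 16 large membrane and matrix genes rose and 2 fell, 1 of 4 osteoblastic growth factors rose besides the fall of IGF1, 0 of 3 metallothioneins passed, and 1 of 2 neuroendocrine genes, SYT4, fell. Without RANKL replicate 1, 0 heat shock genes fell and 1 ERK feedback gene rose, and without RANKL replicate 2, 0 ERK feedback genes fell. None of the large membrane and matrix genes rose without RANKL replicate 1 or with library size alone (where 6 fell), and 1 rose without each of the other 4 libraries. The growth factor that rose, PDGFA, no longer passed without RANKL replicate 1, without untreated replicate 2 or 3, under the replicate block, with library size alone, in the fit of the 20 mono-cultures or with DESeq2. With the MG63 co-cultures as the control, 0 NRF2 targets rose and 3 fell, 1 spliceosome gene rose and 1 fell, and 0 NF-kB targets rose and 6 fell. Of the p53 targets 0 fell without RANKL replicate 1 and 1 without RANKL replicate 2 or untreated replicate 2, and of the NRF2 targets 1 fell without RANKL replicate 1, RANKL replicate 2 or untreated replicate 1.

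Some of the most abundant genes that changed fell outside every list and were chosen here after their values were seen. AIDA, an axin interactor, was at 185, 178 and 186 CPM without RANKL and 538 and 495 CPM with it (log2 fold change 1.59 ± 0.08 SE, edgeR adjusted p = 3e-13). WDR7 and TXNL1 are neighbors on chromosome 18 of GRCh38, TXNL1 from 56597208 to 56651600 and WDR7 from 56651343 to 57036606. WDR7 rose from 17.3, 16.5 and 17 CPM to 52.4 and 54.6 CPM, and TXNL1, a thioredoxin-like protein, from 124, 127 and 124 CPM to 262 and 273 CPM. DHX36, an RNA helicase, fell from 343, 361 and 355 CPM to 159 and 169 CPM (-1.02, or -0.98 and uncalled without RANKL replicate 1, and just under 2-fold and uncalled without untreated replicate 2). AIDA was at 229 and 217 CPM and DHX36 at 423 and 423 CPM beside MG63 cells, both away from the RANKL level.

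Stretches of chromosomes moved by small amounts. On chromosome 3 from its start to 120 Mb (GRCh38), 149 of 363 tested genes rose and 8 fell at an adjusted p under 0.05, and 85.7% of fold changes were above 0, against 47.3% over all genes tested. The median shift from the untreated mean over the genes with at least 5 CPM was 0.27 and 0.27 on the log2 scale in the RANKL libraries and between -0.00 and 0.00 in the untreated libraries. On chromosome 6 from 40 to 60 Mb the shifts were 0.22 and 0.24 (34 of 83 rose, 4 fell), and on chromosome 16 from its start to 40 Mb they were 0.24 and 0.21 (119 of 335 rose, 4 fell). On chromosome 16 from 40 to 70 Mb the shifts were -0.23 and -0.24, with 47 of 127 lower and 1 higher. The rest of these chromosomes stayed between -0.06 and 0.04. The stretches were found by scanning the data in 10 Mb bins and their limits were set after the values were seen, so no test was made of them.

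The RAW264.7 co-cultures, the other C4-2 cultures with RANKL, had shifts of 0.27 and 0.27 on chromosome 3, 0.25 and 0.21 on chromosome 6, 0.24 and 0.24 on the first stretch of chromosome 16 and -0.23 and -0.20 on the next. The MG63 co-cultures stayed between -0.03 and 0.03 on all 4 stretches. In C4-2B mono-cultures with RANKL chromosome 3 was at -0.01 and -0.01, while chromosome 16 from 40 to 70 Mb was at 0.16 and 0.15, opposite in sign to C4-2. Of 277 bins of 10 Mb, 20 had a median beyond 0.15 in both C4-2 RANKL libraries, against 1 beside MG63 cells and 21 beside RAW264.7 cells. In the other lines the same count with RANKL alone and beside MG63 cells was 5 and 1 in C4-2B, 40 and 3 in DU145, and 22 and 22 in 22Rv1, where it was as high without RANKL.

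The 4 stretches held 8.06% of the genes tested and 15.3% of the 2389 genes that passed at any fold. Of the genes called at 2-fold, 84 of the 91 higher and 76 of the 82 lower lay elsewhere, so the stretches held about the share of calls that they held of genes tested. Without the genes of the stretches, an alternative chosen after seeing the data, 14 of 75 ribosomal protein genes rose against 23 of 84 with them, and 3 of 27 cell cycle genes against 5 of 29. In the same alternative 0 glycolysis and hypoxia genes rose, 1 NRF2 target fell and 1 large membrane and matrix gene rose. Several genes named above lie in them, such as ALDOA on chromosome 16 at 30064164 to 30070457, NQO1 on chromosome 16 at 69706996 to 69726951, and EPHA3 on chromosome 3 at 89107524 to 89482134, which fell within a stretch that rose. The part of the regional shift in the values of single genes was not tested.

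**Figure D4:**
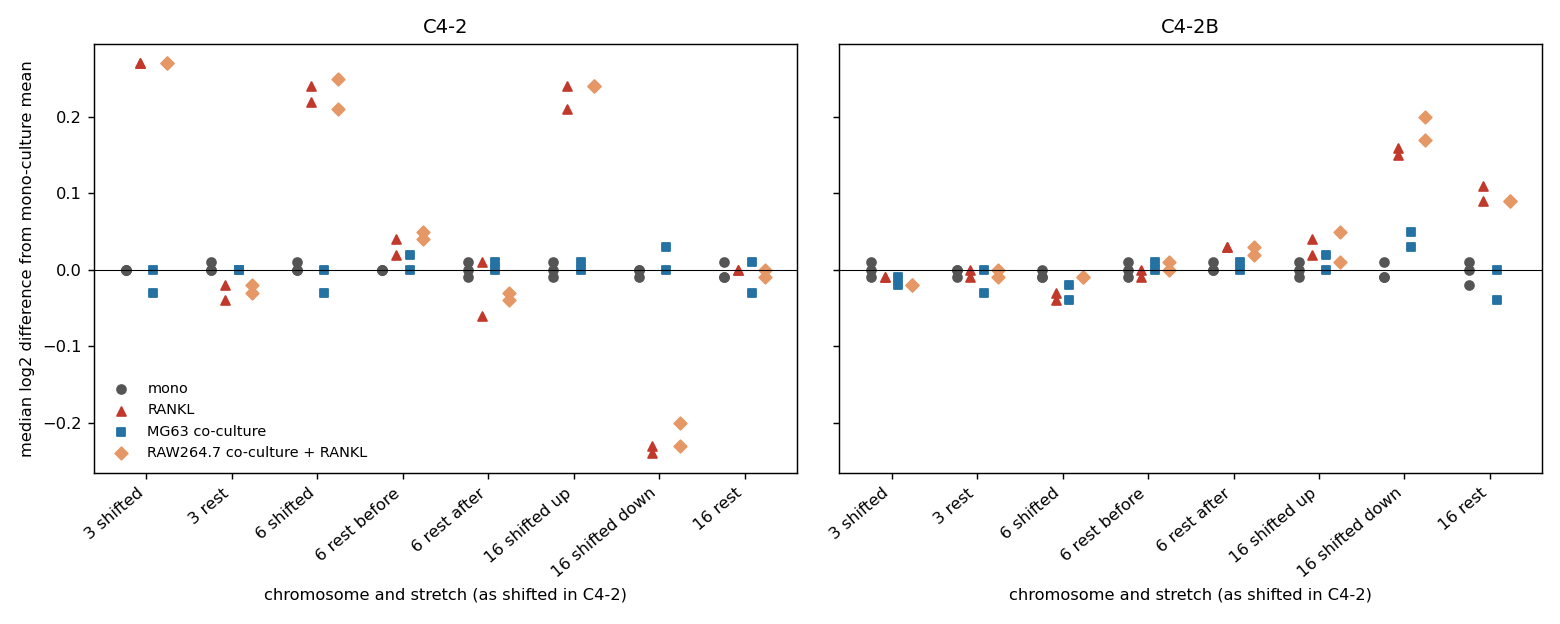
Median log2 difference from the mean of the untreated mono-cultures, over genes of at least 5 CPM, in every C4-2 library (left) and C4-2B library (right) for 8 stretches of chromosomes 3, 6 and 16. In C4-2 the libraries with RANKL stand at 0.21 to 0.27 or -0.24 to -0.20 on the 4 shifted stretches, and those without it stand between -0.03 and 0.03.

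C4-2B is a bone-derived subline of C4-2, and it had 3 mono-cultures without RANKL and 2 with it in the same design. The difference between the changes in both lines was tested directly in the same fit, and 181 of 11525 genes (1.57%) were called, 101 with the higher change in C4-2 and 80 with the lower. HS3ST1 in C4-2B was at a mean of 28.1 CPM without RANKL and 28.8 CPM with it, so C4-2B stood near the RANKL level of C4-2 in both conditions, and the difference of changes was 3.53 on the log2 scale. DAPK1 stayed low in C4-2B, with means of 2.83 and 2.76 CPM (difference 3.06), and BMP7 went from 9.30 to 7.67 CPM (difference 2.67).

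EPHA3 rose in C4-2B from a mean of 8.69 to 18.3 CPM (log2 fold change 1.18, edgeR adjusted p = 2.2e-11), a difference of changes of -2.91. VIM rose there from 4.02 to 11.7 CPM (1.64, edgeR adjusted p = 1.2e-07), a difference of -2.90. RND3 fell in both lines, by 2.06 in C4-2 and 0.50 in C4-2B, and the difference of -1.56 was called. Of the genes called in C4-2, 27 of the 91 higher were also called higher in C4-2B (29.7% of the C4-2 list and 45.8% of the 59 in C4-2B), and 14 of the 82 lower were called lower there (17.1%, and 11.5% of 122), where 0.52% of all genes tested were called higher and 1.08% lower. FGF23, BRDT, GPNMB and CYP11A1 rose in both lines, with log2 fold changes in C4-2B of 3.27, 2.12, 2.01 and 1.90.

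**Figure D5:**
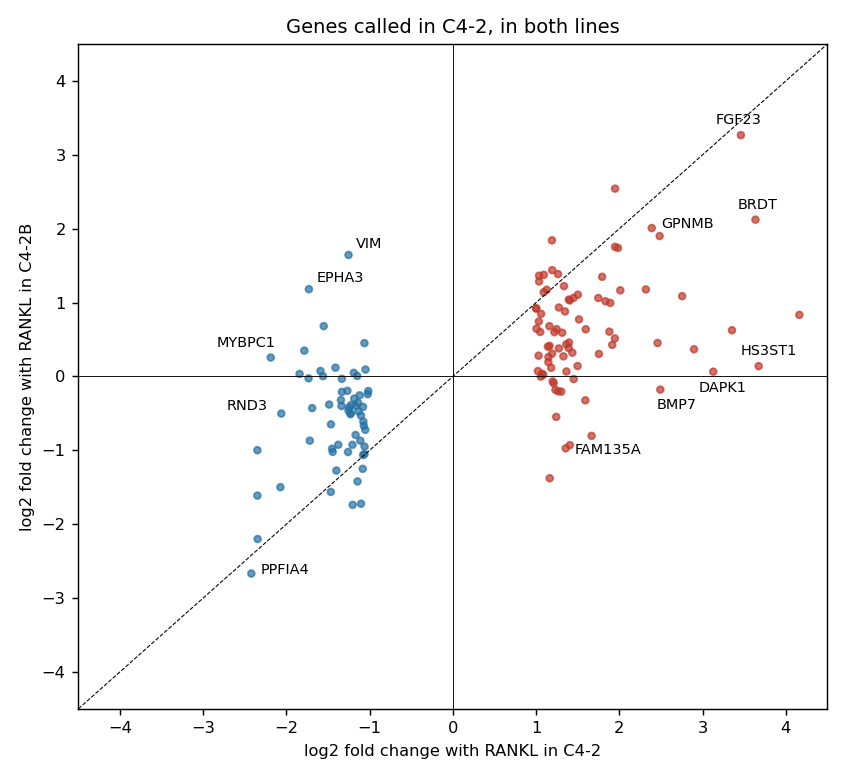
Log2 fold change with RANKL in C4-2 (horizontal) and C4-2B (vertical) for the genes called in C4-2 that have a fold change in both lines (87 higher and 62 lower), less 4 genes of the Y chromosome, red for higher and blue for lower in C4-2, with equality as a dashed line. FGF23 and PPFIA4 lie near the line, HS3ST1, DAPK1 and BMP7 lie near 0 in C4-2B, and EPHA3 and VIM lie above 0 there.

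DU145 and 22Rv1, the lines used as models of osteolytic prostate cancer, had fewer of the C4-2 genes tested, so these counts are not compared with those of C4-2B. Of the 91 genes called higher and 82 called lower in C4-2, 62 and 47 were tested in DU145 and 58 and 56 in 22Rv1, against 87 and 62 in C4-2B. Over all genes tested, 1.77% were called higher and 2.14% lower in DU145, and 0.907% and 0.693% in 22Rv1. With RANKL, 6 genes were called higher in both C4-2 and DU145 (6.59% of the C4-2 list, 2.86% of that of DU145) and 7 lower (8.54% and 2.76%). For 22Rv1, 10 were called higher in both (11% and 9.43%) and 5 lower (6.1% and 6.17%). In all 4 lines FGF23 was called higher and RPL10 and RPS2P5, a pseudogene, lower, among 9963 genes tested in each. FGF23 went from a mean of 5.01 to 32.7 CPM in DU145 and from 6.04 to 37.2 CPM in 22Rv1.

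Against the mean change of the other 3 lines, 253 of 13433 genes were called (1.88%), 142 with the higher and 111 with the lower change in C4-2. HS3ST1 (2.61), DAPK1 (3.02) and BRDT (2.54) were among the largest positive differences, and ALDH3B2 (-2.34), C2orf72 (-2.27), SLC22A3 (-2.09), AHR, the dioxin receptor (-2.02), and EPHA3 (-1.88) among the negative ones. H1-12P, CD163L1, NPPC and C1DP1 were also named by the rule, with differences of 3.36, 2.59, 2.46 and -3.29, but these rest on near-absent levels in other lines, where a fitted fold change depends on the prior count. In C4-2 itself C1DP1 did not pass (0.00, edgeR adjusted p = 1.0), nor did NPPC, a natriuretic peptide (0.52, adjusted p = 0.13). The histone list had a median of 0.71 in C4-2B over 28 tested genes, -0.64 in DU145 over 20 and 0.53 in 22Rv1 over 8, and the glycolysis and hypoxia list -0.79 over 23, 0.21 over 23 and -0.02 over 21. These medians cover different genes and were not tested against each other.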

How the data were processed

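Poly(A) RNA of the cancer cells was sequenced on DNBSEQ-G400 from strand-specific libraries. The authors deposited estimated counts per transcript from kallisto (per the labels, FastQC, kallisto and hg19 were used) for 36 libraries. Lines repeated for the same transcript were used once (159837 transcripts of 161149 lines), and transcripts were summed by gene symbol into 27852 genes. The 6878 transcripts without a symbol stayed in the totals. Coordinates were taken from GENCODE 29 (GRCh38) by transcript identifier, which matched 95.4% of transcripts, and promoter sequences from RefSeq (GRCh38.p14).

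Rounded counts were fitted with edgeR 4.0.16 (R 4.3.3, TMM scaling, quasi-likelihood) in 1 fit of all 36 libraries with 1 mean for each of 16 groups of line and culture. Each SE is the absolute log2 fold change over the square root of the test's F statistic, not a separately fitted value. A gene was tested when any of the 5 C4-2 mono-cultures had 100 counts or more. In gene lists, genes "rose" or "fell" at an adjusted p under 0.05 whatever the fold. The 12 largest changes in each direction were named among called genes at a mean of at least 5 CPM without overlap between the groups, and the 6 largest differences from the other lines in each direction among called genes at that mean. All genes of the RANK axis, up to 4 called genes of each list, SERPINA3 and LCN2 were also named. Further list members were named after their values were seen, as examples, and Y-linked genes were only counted. The members and lists were chosen with earlier results of these data known.

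The script was tested on simulated data. Alternatives were no count minimum, a mean of 5 CPM, other scalings, DESeq2 1.42.0, smaller fits, the replicate number as a block, no fold threshold, unadjusted p-values, thinning and leaving out each library. Alternatives without the DU145 and MG63 replicate 2 library, without the shifted stretches and with the MG63 co-cultures as control were added after seeing the data. The chi-square per degree of freedom between replicates was 3.33 to 4.1 in the 4 pairs of C4-2 mono-cultures, above counting noise, so none of these 5 was counted as a duplicate of another. A count floor of 3 covers counting error only.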

Additional observations from a re-analysis of the deposited data

Results flagged for a closer look

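The change with RANKL differed between C4-2 and C4-2B, by a test of the difference itself (edgeR, adjusted p under 0.05 and difference over 2-fold), for 19 of the genes named here. On the log2 scale, C4-2 minus C4-2B, the positive differences were 3.53 for HS3ST1, 3.06 for DAPK1, 2.67 for BMP7, 2.53 for MYL9, 2.01 for LGALS1, 1.67 for BRINP1, 1.51 for BRDT and 1.14 for IGFBP3. The negative differences were -2.91 for EPHA3, -2.90 for VIM, -2.45 for MYBPC1, -2.40 for SLC22A3, -2.20 for AHR, -1.88 for C2orf72, -1.71 for RIMS1, -1.67 for ALDH3B2, -1.56 for RND3, -1.51 for IGF1 and -1.11 for CADPS2.

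The change in C4-2 also differed from the mean change of C4-2B, DU145 and 22Rv1 by the same kind of test for 25 named genes. The positive differences were 3.36 for H1-12P, 3.02 for DAPK1, 2.61 for HS3ST1, 2.59 for CD163L1, 2.54 for BRDT, 2.46 for NPPC, 2.28 for BRINP1, 2.26 for MYL9, 2.13 for CYP11A1, 1.86 for LGALS1, 1.75 for IGFBP3, 1.67 for GPNMB and 1.15 for H4C11. The negative differences were -4.15 for COL5A1, -3.29 for C1DP1, -2.34 for ALDH3B2, -2.27 for C2orf72, -2.09 for SLC22A3, -2.02 for AHR, -1.88 for EPHA3, -1.66 for VIM, -1.53 for CADPS2, -1.30 for RND3, -1.18 for HK2 and -1.14 for ZSCAN31. Several of these genes were near 0 in DU145 or 22Rv1, where the fitted fold change depends on the prior count. COL5A1 was below the count minimum for testing in both of those lines.

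On chromosome 16 from 40 to 70 Mb every RANKL library of C4-2 lay below its untreated cultures and every RANKL library of C4-2B above, with median shifts of -0.23 in C4-2 replicate 1 and 0.16 in C4-2B replicate 1. The difference between the lines was not tested there.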

How the results depend on the processing

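Leaving out 1 library at a time gave 88 to 92 genes higher and 76 to 87 lower with RANKL, 138 to 171 whose change differed from C4-2B and 178 to 225 whose change differed from the other 3 lines, against 91, 82, 181 and 253. The calls themselves moved more than these counts, since 54 of the 82 lower genes were still called without RANKL replicate 1 and 51 without RANKL replicate 2. Of the 181 that differed from C4-2B, 119 and 142 were still called without RANKL replicates 1 and 2. Of the 253 that differed from the other 3 lines, 162 and 154 were. Same-numbered libraries did not deviate together (r = -0.004 and -0.058 in C4-2), so the numbers give no pairing, and the replicate block gave 95 higher, 83 lower, 176 and 251. Without a count minimum 203 were higher and 163 lower. At a mean of 5 CPM 36 were lower and 118 differed from C4-2B, and after thinning 39 and 114. Without a fold threshold the counts were 1227, 1162, 712 and 1418, and with unadjusted p-values 432 differed from the other 3 lines. The remaining alternatives stayed within 1.5 times, at 71 to 98 higher, 74 to 115 lower, 176 to 252 and 171 to 306. With the MG63 co-cultures as control, which gave 71 higher and 93 lower, only 38 of the 91 and 39 of the 82 were still called. With the MG63 co-cultures as control the sign turned for FGF23 (-0.07), PPFIA4 (0.59), RPL10 (0.48) and TMSB4X (-0.04), and the cause was not tested. Of 777 values for 46 named genes, 732 kept their side of the threshold, 41 lost the call and 4 turned, and of these 15 and 4 came with the MG63 co-cultures as control, where 27 of 46 kept it. No fit on the C4-2 and C4-2B libraries alone applies to the contrast with 3 lines. Of the 82 genes called lower, 66 were under 100 counts in both RANKL libraries and passed the minimum only through the deeper libraries without RANKL.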
